A study of Mus musculus with 9 samples.

Results

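The sorting nexins (Snx genes) and the vacuolar protein sorting genes (Vps genes) encode proteins that move membrane and cargo through the endosomal system. They were taken here by symbol, as every protein-coding row named Snx or Vps followed by a digit, which gave 64 of the 50600 genes in the deposited tables, 30 of them Snx and 34 Vps. The RNA came from RAW-Blue cells, a macrophage line of mouse origin that carries an inflammation-driven reporter and is kept under the antibiotics Zeocin and Normocin. The LPS group (n = 3) received lipopolysaccharide, the bacterial cell wall component that Tlr4 recognises, at 1 µg/ml for 24 hours, and the None group (n = 3) received neither LPS nor vesicles. A further group given plant nanovesicles for 16 hours before LPS was not analysed here. RAW-Blue is a single established line, and nothing in the labels says that the libraries of a group came from separate cultures, so p-values measure the spread between these libraries only.

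Endosomes receive proteins from the cell surface and the secretory pathway and either return them or pass them to lysosomes. Sorting nexins bind phosphoinositides on endosomes through a PX domain, and many bend the membrane into tubules through a BAR domain. Retromer and retriever load cargo for return, the ESCRT machinery packs cargo marked with ubiquitin into internal vesicles for degradation, and the HOPS and CORVET complexes tether endosomes and lysosomes before fusion. In macrophages the same system handles phagosomes, surface receptors and secreted cytokines.

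Libraries held 14650843 to 15659413 counts in LPS and 17028457 to 17665200 in None. The LPS labels were checked on Tnf, Il1b and Nos2, which were all higher in LPS, with 711 ± 56.9 CPM of Tnf in LPS and 74.1 ± 13.1 CPM in None (SD, n = 3 each). All 8 macrophage markers were expressed, 3 of them higher in LPS and 2 lower, and the markers of other cell types had too few counts to be tested, with Epcam, Cd3e and Alb at 0 and the highest, Acta2, at 0.361 to 0.568 CPM in LPS and 0.0517 to 0.310 CPM in None. Values below are CPM (counts scaled to the size of the library, by TMM) where 1 gene is compared between groups, and TPM (also scaled to transcript length) where genes are compared with each other. Changes and adjusted p-values are those of edgeR's quasi-likelihood fit, adjusted by Benjamini and Hochberg's method over all 11916 genes tested, and a gene is called at an adjusted p under 0.05. By this rule 69.1% of all genes tested were called in either direction. Changes are log2 fold changes of LPS over None ± SE. In bulk RNA, fewer cells of a kind and less RNA per cell cannot be told apart.

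Of the 64 genes, 62 had enough counts to be tested. Snx31 had 0 counts in all 6 libraries. The limit that a count of 0 allows, 3 counts of a library, corresponds to 0.170 to 0.205 CPM of total counts, without TMM. Vps37d had 1, 1 and 0 counts in the LPS libraries and 2, 5 and 4 counts in the None libraries. Among the genes tested, 23 (37.1%) were higher in LPS, where 34.0% of all genes tested were, and 16 (25.8%) were lower, where 35.1% of all genes tested were. Changes of at least 2-fold were seen in 2 genes upward and 3 downward, or 3.23% and 4.84%, beside 11.1% and 11.8% of all genes tested. The median log2 fold change of the family was 0.04, and that of all genes tested was -0.03. The groups did not overlap in 26 genes with LPS above None and in 16 with LPS below None, beside 35.7% and 38.0% of all genes tested. The called increases lay between 0.18 and 1.53 on the log2 scale and the called decreases between -1.42 and -0.17.

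How many genes were higher depended on the scaling of the libraries. Scaling by total counts moved the median of all genes tested by -0.26 on the log2 scale and gave 8 higher and 31 lower family members, beside 22.5% and 51.0% of all genes tested. limma on log2(TPM + 0.1) moved that median by -0.22 and gave 7 higher and 24 lower, beside 23.2% and 42.4%. Snx18, Snx7, Vps37c, Snx20, Snx6 and Snx10 were higher under all 3 scalings, and all 16 lower genes were lower under all 3. Since both other scalings moved the typical gene downward, they were a weak test of the lower calls. The lower calls of Vps41, Vps54 and Vps16 were lost in other settings, as given below. Both other scalings left 1 increase of at least 2-fold. Directions of small changes are therefore given relative to the typical gene.

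**Figure D1:**
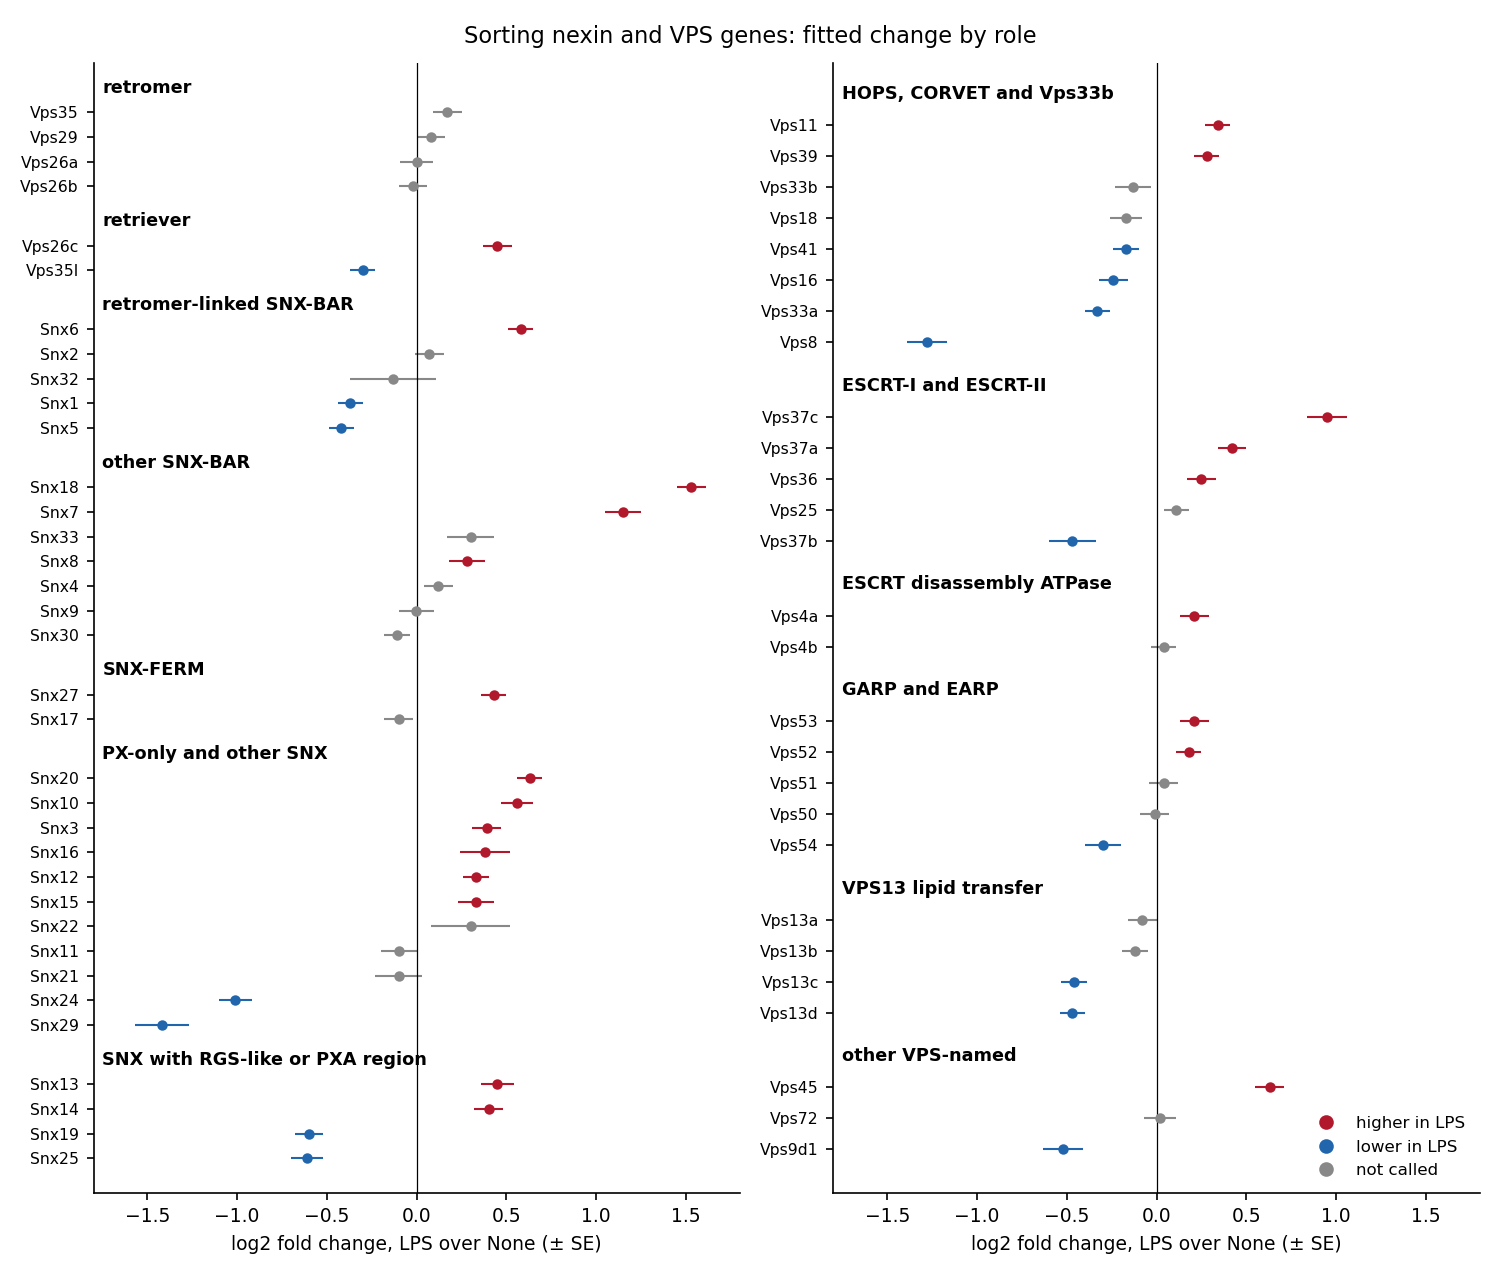
Fitted log2 fold change of LPS over None (horizontal axis, ± SE, 3 libraries per group) for the 62 tested sorting nexin and VPS genes, sorted by role. Red points were higher in LPS, blue points lower and grey points not called. Snx18 lies furthest to the right at 1.53 and Snx29 furthest to the left at -1.42.

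Of the sorting nexins with a BAR domain outside the retromer-linked group, 3 of 7 were higher in LPS and 0 lower, beside 34.0% and 35.1% of all genes tested, and they held the largest increases of the family. Under scaling by total counts the split was 2 higher and 2 lower, beside 22.5% and 51.0% of all genes tested. On TPM it was 2 higher and 1 lower, beside 23.2% and 42.4%. Snx18, an SH3 domain sorting nexin of clathrin-mediated endocytosis and, in human cells, of autophagosome formation, lies at chr13:113592179-113618564 on the minus strand (GRCm38, as are all positions from the deposited tables). It had 106, 89.1 and 90.5 CPM in the LPS libraries, against 33.2, 32.6 and 33.1 CPM in the None libraries. Every LPS library stood far above every None library, and the log2 fold change was 1.53 ± 0.08 (SE), 2.89-fold, with an adjusted p of 8.22e-09. Its relative Snx9, which binds dynamin at endocytic pits, had 252, 226 and 191 CPM in LPS and 199, 237 and 235 CPM in None, so that the groups overlapped. The fitted change of Snx9 was -0.0013 ± 0.10, with a 95% interval from -0.23 to 0.22, and scaling by total counts called it lower at -0.26 (adjusted p 0.0423). Snx33, the other member of that group, had a fitted change of 0.30 and missed the threshold with an adjusted p of 0.0503. It was called higher with RLE size factors (adjusted p 0.0363) and without LPS replicate 2 (0.40, adjusted p 0.0137).

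Snx7 was the second increase of over 2-fold. In human cells it pairs with Snx4 in endosomal recycling and autophagy, and in mouse it lies at chr3:117781647-117868936 on the minus strand. It had 34.9, 33.0 and 29.5 CPM in LPS, against 13.2, 15.0 and 15.6 CPM in None, with no overlap, and its log2 fold change was 1.15 ± 0.10 with an adjusted p of 7.13e-07. Snx30, the alternative partner of Snx4, had 48.0, 45.7 and 49.7 CPM in LPS and 53.4, 51.9 and 49.6 CPM in None and was not called, though it was lower at -0.37 under scaling by total counts. The expected counts of Snx30 were not whole in 5 libraries. Snx4 itself was not called, at 0.12, with -0.14 under scaling by total counts. Snx8, which acts in transport from endosomes to the Golgi, was higher by 0.28 (adjusted p 0.024) but came to -6.3e-05 on TPM, and its adjusted p was 0.0622 without None replicate 1, 0.0832 without None replicate 3 and 0.0807 without LPS replicate 3.

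**Figure D2:**
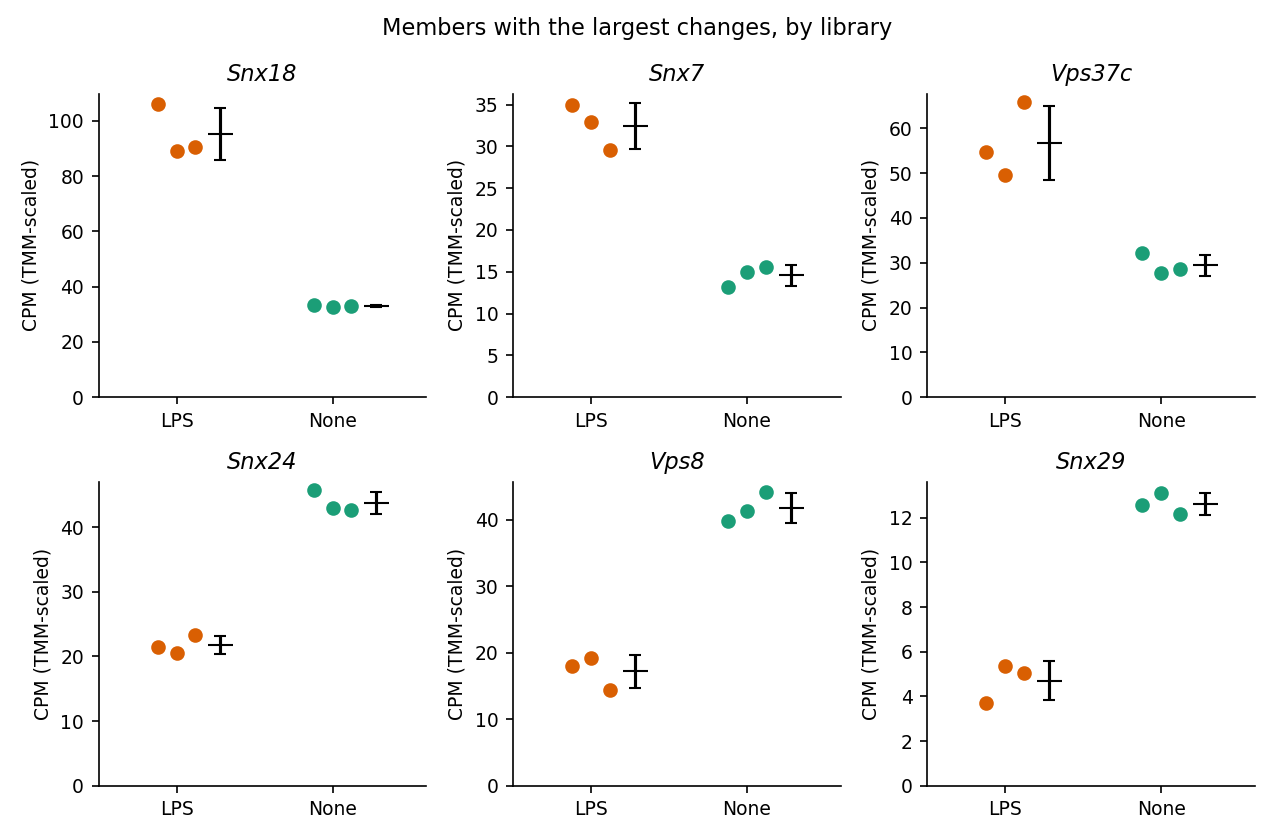
CPM of each library (vertical axis, TMM-scaled, from 0) for Snx18, Snx7 and Vps37c in the upper row and Snx24, Vps8 and Snx29 in the lower row, with LPS left and None right of each panel. Points are libraries and the bars show the mean ± SD (n = 3). In no panel do the groups overlap.

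The retromer-linked BAR proteins form heterodimers of Snx1 or Snx2 with Snx5, Snx6 or Snx32 and return the cation-independent mannose 6-phosphate receptor to the Golgi. Of these 5 genes, 1 was higher and 2 were lower, beside 34.0% and 35.1% of all genes tested. The counts were the same under scaling by total counts (beside 22.5% and 51.0%) and on TPM (beside 23.2% and 42.4%). Snx5, the most abundant of them, had 208, 228 and 221 CPM in LPS and 289, 284 and 304 CPM in None, and its log2 fold change was -0.42 ± 0.07 (adjusted p 0.00022). Snx6 moved the other way, with 87.5, 85.02 and 80.9 CPM in LPS against 54.0, 56.7 and 58.6 CPM in None, a change of 0.58 ± 0.07 (adjusted p 1.07e-05). The libraries of both genes separated by group without overlap. Snx1 had 102.3, 105 and 93.3 CPM in LPS and 127, 130 and 131 CPM in None, which was lower at a fitted -0.37 ± 0.07 (adjusted p 0.000442). Snx2, its alternative partner, had 112, 133 and 122 CPM in LPS and 113, 115 and 121 CPM in None. The Snx2 groups overlapped, the fitted change was 0.07 (-0.18 under scaling by total counts), and the expected counts of Snx2 were not whole in any of the 6 libraries, so its reads were divided with other genes. Snx32, the rare member of this group, had 2.59 ± 0.64 CPM in LPS and 2.83 ± 0.62 CPM in None and was not called. Of its exonic bases, 13.2% lie opposite exons of Cfl1, which averaged 1153 CPM over the 6 libraries. The sources used here do not say whether the counting used strand.

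Retromer itself, the trimer of Vps35, Vps29 and either Vps26a or Vps26b, had no subunit called in either direction. Of all genes tested, 69.1% were called. Scaling by total counts called 2 of the 4 retromer genes lower, Vps26a and Vps26b, beside 51.0% of all genes tested. The TPM test called 1 lower, Vps26b, beside 42.4%. Vps35, the scaffold subunit, had 276, 243 and 242 CPM in LPS against 234, 219 and 223 CPM in None. All 3 LPS libraries lay above the None libraries, and the fitted change was 0.17 with a 95% interval from 0.01 to 0.34 and an adjusted p of 0.0609; it was -0.09 under scaling by total counts. Leaving out LPS replicate 2 or LPS replicate 3 brought the adjusted p to 0.0461 and 0.0397, and Vps35 was called higher with RLE size factors (0.20, adjusted p 0.0436) and DESeq2 (0.20, adjusted p 0.0339). Vps29 had 62.4, 71.4 and 64.0 CPM in LPS and 61.2, 58.9 and 67.4 CPM in None, and the groups overlapped. The intervals of the other subunits were -0.10 to 0.25 for Vps29, -0.19 to 0.18 for Vps26a and -0.19 to 0.14 for Vps26b.

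Retriever shares Vps29 with retromer and sorts integrins and other cargo bound by Snx17. Its own subunits went in opposite directions. Vps26c had 69.3, 58.5 and 60.4 CPM in LPS against 44.4, 47.7 and 46.1 CPM in None, a change of 0.45 ± 0.08 (adjusted p 0.000345). Vps35l, the scaffold, had 103, 92.2 and 98.2 CPM in LPS against 121, 119 and 122 CPM in None, a change of -0.30 ± 0.07 (adjusted p 0.00176). Neither gene had overlapping groups. The Vps26c increase was not called under scaling by total counts (0.19, adjusted p 0.053) or on TPM (0.24, adjusted p 0.0981).

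The FERM-domain sorting nexins choose cargo for these complexes, Snx27 for retromer and Snx17 for retriever. Snx27, whose PDZ domain recognises receptors and the glucose transporter Slc2a1, had 129, 122 and 112 CPM in LPS and 94.3, 87.3 and 87.2 CPM in None, and was higher by 0.43 ± 0.07 (adjusted p 0.000212). That call also held under scaling by total counts, but on TPM the change was 0.15 with an adjusted p of 0.273. Snx17 had 76.9, 79.9 and 90.5 CPM in LPS and 91.8, 86.4 and 86.2 CPM in None, with overlapping groups and no call, but was lower at -0.35 under scaling by total counts and at -0.27 on TPM. Snx31, the remaining gene of the class, was the one at 0 counts.

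Among the 11 sorting nexins with a PX domain as their main feature, 6 were higher and 2 were lower, beside 34.0% and 35.1% of all genes tested, and the lower genes included the largest decrease of the family. Scaling by total counts gave 2 higher and 4 lower, beside 22.5% and 51.0%, and so did the TPM test, beside 23.2% and 42.4%. Snx29, which has a RUN domain beside its PX domain, lies at chr16:11322908-11755472 on the plus strand. It had 3.69, 5.37 and 5.05 CPM in LPS against 12.6, 13.1 and 12.2 CPM in None. Its highest LPS library was below its lowest None library, and the log2 fold change was -1.42 ± 0.15, or 2.68-fold lower, with an adjusted p of 3.02e-06. Snx24, a protein of little more than a PX domain at chr18:53245662-53390920 on the plus strand, had 21.5, 20.6 and 23.3 CPM in LPS against 45.8, 43.0 and 42.7 CPM in None. Its groups were likewise apart, with a change of -1.01 ± 0.09, or 2.01-fold lower, and an adjusted p of 5.32e-07. That fold lies close to the threshold of 2.

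The increases in this class were smaller. Snx20, which binds the selectin ligand Selplg, had 57.5, 59.3 and 61.3 CPM in LPS against 36.7, 40.2 and 38.2 CPM in None, a change of 0.63 ± 0.07 (adjusted p 8.66e-06). Snx10, which is needed for osteoclast function and acts on endosome and lysosome acidification, had 89.2, 81.8 and 72.1 CPM in LPS against 54.6, 52.3 and 58.6 CPM in None, a change of 0.56 ± 0.09 (adjusted p 0.000101). For both genes every LPS library exceeded every None library. Their closest relatives were not called, but were lower under both other scalings, Snx21 at -0.36 by total counts and -0.34 on TPM and Snx11 at -0.36 and -0.31. Snx21 had 18.8, 13.5 and 17.3 CPM in LPS and 16.4, 19.2 and 17.6 CPM in None, and Snx11 had 15.3, 16.4 and 17.5 CPM in LPS and 18.1, 17.4 and 17.2 CPM in None. Snx3, the retromer adaptor for the Wnt carrier Wntless, was higher by 0.39, Snx16 by 0.38, and Snx12 and Snx15 by 0.33 each, but none of these was called under scaling by total counts, and Snx12 came to -0.03 on TPM. The Snx15 call was lost without None replicate 1 (adjusted p 0.0525), and the Snx16 call without any one None library or LPS replicate 2 (adjusted p between 0.0624 and 0.073) or with DESeq2 (adjusted p 0.0817). Snx22 was measured at 4.05 ± 0.06 CPM in LPS and 3.28 ± 0.92 CPM in None and was not called. Of its exonic bases 28.5% lie opposite exons of Ppib, which averaged 212 CPM.

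The 4 sorting nexins with a PXA domain, of which most carry an RGS-like domain, sit on the endoplasmic reticulum or at its contacts with other membranes. Of these 4 genes, 2 were higher and 2 lower, beside 34.0% and 35.1% of all genes tested. Scaling by total counts gave 0 higher and 2 lower, beside 22.5% and 51.0%. The TPM test gave 1 higher and 2 lower, beside 23.2% and 42.4%. In the main fit Snx13 and Snx14 were higher, by 0.45 ± 0.09 and 0.40 ± 0.08, and Snx19 and Snx25 were lower. Snx25 had 39.1, 34.5 and 30.7 CPM in LPS against 49.9, 55.2 and 53.6 CPM in None, a change of -0.61 ± 0.09 (adjusted p 9.73e-05). Snx19 had 31.1, 29.1 and 28.9 CPM in LPS against 46.5, 44.8 and 43.8 CPM in None, a change of -0.60 ± 0.08 (adjusted p 2.52e-05). Neither of these genes overlapped between groups. Snx13 was not called under scaling by total counts (adjusted p 0.0697) or on TPM, and Snx14 not under scaling by total counts (adjusted p 0.118).

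HOPS and CORVET share the core of Vps11, Vps16, Vps18 and Vps33a. HOPS adds Vps39 and Vps41 and acts at late endosomes and lysosomes, while CORVET adds Vps8 and Tgfbrap1 and acts at early endosomes. With Vps33b, which works with Vipas39, 2 of these 8 Vps genes were higher and 4 lower, beside 34.0% and 35.1% of all genes tested. Scaling by total counts gave 0 higher and 6 lower, beside 22.5% and 51.0%. The TPM test gave 0 higher and 5 lower, beside 23.2% and 42.4%. Vps8, at chr16:21423169-21644680 on the plus strand, changed most. It had 18.1, 19.2 and 14.4 CPM in LPS against 39.8, 41.3 and 44.1 CPM in None. All LPS libraries lay below all None libraries, with a change of -1.28 ± 0.11, or 2.42-fold lower, and an adjusted p of 4.84e-07. Tgfbrap1, its CORVET partner and no family member by name, was also lower, at -0.68 (adjusted p 4.64e-05).

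The HOPS subunit Vps39 had 85.04, 84.2 and 81.7 CPM in LPS and 66.9, 71.8 and 68.0 CPM in None, a change of 0.28 ± 0.07 (adjusted p 0.00247) that scaling by total counts reduced to 0.02. The core subunit Vps11 had 95.5, 97.7 and 108 CPM in LPS and 78.5, 79.7 and 80.0 CPM in None, a change of 0.34 ± 0.07 (adjusted p 0.000948), and 0.08 under scaling by total counts. The core genes Vps33a and Vps16 were lower, at -0.33 and -0.24, and so was the HOPS subunit Vps41, at -0.17. The Vps16 call was lost without None replicate 2 (adjusted p 0.0568) or LPS replicate 1 (adjusted p 0.0503). The Vps41 call, at an adjusted p of 0.0494, was lost when any library but LPS replicate 1 was left out (adjusted p between 0.0523 and 0.176), and also with RLE (0.0893), DESeq2 (0.16) or no filter on low counts (0.0675). Vps18 and Vps33b were not called, with fitted changes of -0.17 and -0.13. Scaling by total counts called both lower, at -0.43 and -0.38 (adjusted p 0.000647 and 0.00548), and the TPM test called Vps18 lower at -0.39 (adjusted p 0.00936). Vps18 also reached an adjusted p of 0.0435 without LPS replicate 3.

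Promoter windows, from 250 bases before to 50 after each start site, were available from RefSeq (GRCm38.p6) for 43 of the 64 genes, in 53 windows. They were searched on both strands for 5 motifs. The CLEAR motif, here GT, the E-box CACGTG and AC in a row, known as a binding site of Tfeb at lysosomal genes, occurred in 4 of the 53 windows (7.55%), beside 0.326% of all 32851 promoter windows. It lay at Vps16, 20 bases upstream of the start, at Vps33a, 14 bases upstream, and in both windows of Vps26a, 153 and 184 bases upstream. The E-box alone, which every CLEAR match contains, occurred in 8 windows (15.1%), beside 7.15% of all windows. The kappaB motif, GGGA and TTCC with any 2 bases between them and the site of the NF-kappaB factors that LPS activates, was found in 1 window (1.89%), that of Vps8, 152 bases upstream, beside 1.47% of all windows. The interferon-stimulated response element, 2 copies of GAAA with any 2 bases between them, was found at Snx10, Vps26a and Vps41 (5.66% of windows, beside 3.44%), and TGACGTCA, the CRE, in 0 windows, beside 1.79%. The windows of Vps16, Vps33a, Vps26a and Vps8 are shown because they carry the CLEAR and kappaB matches, for Vps26a the window with the match 153 bases upstream, and its other window is not printed. Matches to the searched motifs are in capitals and the strand is that of the gene. They are descriptions of the sequence, and no binding was measured.
Vps16, chr2:130424070-130424369, plus strand: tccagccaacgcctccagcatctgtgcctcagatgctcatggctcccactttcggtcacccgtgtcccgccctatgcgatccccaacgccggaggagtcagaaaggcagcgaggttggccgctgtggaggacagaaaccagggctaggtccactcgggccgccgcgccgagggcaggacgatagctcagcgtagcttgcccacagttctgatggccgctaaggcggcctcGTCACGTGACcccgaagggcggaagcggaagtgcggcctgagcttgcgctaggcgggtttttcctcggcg
Vps33a, chr5:123572966-123573265, minus strand: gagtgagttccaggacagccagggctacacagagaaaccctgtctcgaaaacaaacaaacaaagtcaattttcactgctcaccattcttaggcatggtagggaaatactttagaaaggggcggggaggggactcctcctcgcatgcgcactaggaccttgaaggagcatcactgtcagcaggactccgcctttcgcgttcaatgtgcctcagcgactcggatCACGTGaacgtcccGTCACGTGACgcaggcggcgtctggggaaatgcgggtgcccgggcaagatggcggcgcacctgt
Vps26a, chr10:62486549-62486848, minus strand: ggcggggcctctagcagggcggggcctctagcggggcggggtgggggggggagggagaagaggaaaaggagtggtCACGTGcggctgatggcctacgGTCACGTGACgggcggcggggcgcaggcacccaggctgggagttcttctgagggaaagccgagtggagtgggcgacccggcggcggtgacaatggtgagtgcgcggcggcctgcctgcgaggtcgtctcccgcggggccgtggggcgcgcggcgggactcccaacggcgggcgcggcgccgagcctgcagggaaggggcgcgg
Vps8, chr16:21422868-21423167, plus strand: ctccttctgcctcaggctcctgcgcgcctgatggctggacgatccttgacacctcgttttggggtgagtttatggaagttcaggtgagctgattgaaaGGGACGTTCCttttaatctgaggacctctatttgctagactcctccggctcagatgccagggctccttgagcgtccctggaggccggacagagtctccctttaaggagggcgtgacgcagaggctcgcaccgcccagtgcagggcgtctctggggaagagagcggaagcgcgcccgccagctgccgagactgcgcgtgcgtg
Among these genes, those with a CLEAR match were lower (Vps16 and Vps33a) or not called (Vps26a), and Vps8, with the kappaB match, was lower. The other genes with a match went both ways. With the interferon-stimulated response element, Snx10 was higher and Vps41 lower. With the E-box, Snx18 and Snx8 were higher, Snx5 was lower and Vps50 was not called. A link between motif and change was not tested.

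ESCRT-I and ESCRT-II recognise ubiquitin-marked cargo and start the inward budding of the endosomal membrane. Of the genes taken here by symbol, 6 were placed in these complexes, which need not be all their subunits with a Vps name. Of the 5 that were tested, 3 were higher and 1 lower, beside 34.0% and 35.1% of all genes tested. Scaling by total counts gave 1 and 1, beside 22.5% and 51.0%, and so did the TPM test, beside 23.2% and 42.4%. Vps37c, one of the alternative subunits of ESCRT-I, lies at chr19:10688751-10714626 on the plus strand. It had 54.8, 49.7 and 65.8 CPM in LPS against 32.1, 27.7 and 28.5 CPM in None, with no overlap and a change of 0.95 ± 0.11, or 1.93-fold, at an adjusted p of 6.46e-06. Vps37b had 27.6, 24.9 and 33.3 CPM in LPS against 46.4, 34.0 and 38.6 CPM in None, a change of -0.47 ± 0.13 (adjusted p 0.00597). The highest LPS library of Vps37b was just below the lowest None library, and 32.9% of its exonic bases lie opposite exons of Hip1r, which averaged 2.91 CPM. Vps37a was higher by 0.42 ± 0.08 (adjusted p 0.000659), though not under scaling by total counts (adjusted p 0.118).

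The ESCRT-II gene Vps36 was higher by 0.25 (adjusted p 0.0135), with -0.01 under scaling by total counts and an adjusted p of 0.0578 without None replicate 1, and Vps25 was not called. Vps25 shares 67.2% of its exonic bases with Ramp2 on the same strand, which averaged 0.033 CPM. The ATPases Vps4a and Vps4b take ESCRT filaments apart. Vps4a had 54.3, 52.0 and 57.1 CPM in LPS and 43.6, 47.6 and 50.4 CPM in None, a change of 0.21 ± 0.08 (adjusted p 0.035) that became -0.05 under scaling by total counts and on TPM. The adjusted p of Vps4a was between 0.0566 and 0.137 when None replicate 1, None replicate 2, LPS replicate 1 or LPS replicate 3 was left out, and 0.0682 with no filter on low counts. Vps4b had 121, 113 and 106 CPM in LPS and 111, 113 and 107 CPM in None, with overlapping groups and no call, and scaling by total counts called it lower at -0.22 (adjusted p 0.0162).

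GARP, which tethers endosome-derived vesicles at the Golgi, is made of Vps51, Vps52, Vps53 and Vps54, and EARP holds Vps50 in place of Vps54. Vps54, the GARP-specific subunit, had 23.4, 23.2 and 18.8 CPM in LPS against 26.4, 27.8 and 26.5 CPM in None, a change of -0.30 ± 0.10 (adjusted p 0.0175), which was lost without None replicate 2 (adjusted p 0.0671) or LPS replicate 3 (adjusted p 0.0565) and with DESeq2 (adjusted p 0.0533). Vps53 had 53.5, 56.3 and 52.7 CPM in LPS and 43.8, 47.0 and 49.7 CPM in None, and was higher by 0.21 ± 0.08 (adjusted p 0.0276), with -0.05 under scaling by total counts and a loss of the call when None replicate 1, LPS replicate 2 or None replicate 2 was left out (adjusted p 0.0716 to 0.107) or no filter was used (0.062). Vps52 was higher by 0.18 (adjusted p 0.0448), with -0.08 under scaling by total counts, -0.17 on TPM, and an adjusted p of 0.0578 to 0.14 without any library other than LPS replicate 1, with 0.0588 from DESeq2 and 0.129 with no filter. The EARP subunit Vps50 and the shared subunit Vps51 were not called, at -0.01 and 0.04, but scaling by total counts called both lower, at -0.27 and -0.22 (adjusted p 0.0151 and 0.0165). The expected counts of Vps51 were not whole in any of the 6 libraries. It shares 11.8% of its exonic bases with Tm7sf2 on the same strand, which averaged 9.71 CPM. Of the 5 genes, 2 were thus higher and 1 lower, beside 34.0% and 35.1% of all genes tested. Scaling by total counts gave 0 higher and 3 lower, beside 22.5% and 51.0%. The TPM test gave 0 higher and 1 lower, beside 23.2% and 42.4%.

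The VPS13 genes encode long proteins that pass lipids between membranes at contact sites. Of the 4 genes 2 were lower and 0 higher, beside 35.1% and 34.0% of all genes tested. Scaling by total counts called all 4 lower, beside 51.0%, and the TPM test 3, beside 42.4%. Vps13d had 80.0, 74.4 and 74.2 CPM in LPS against 113, 99.0 and 104 CPM in None, a change of -0.47 ± 0.07 (adjusted p 0.000108). Vps13c, the most abundant, had 246, 252 and 250 CPM in LPS against 364, 350 and 317 CPM in None, a change of -0.46 ± 0.07 (adjusted p 0.000137). For both, every LPS library lay below every None library. Vps13a had 79.6, 72.2 and 66.6 CPM in LPS and 82.4, 74.6 and 73.7 CPM in None, and Vps13b had 103, 109 and 105 CPM in LPS and 117, 121 and 107 CPM in None, and in both genes the groups overlapped.

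The remaining 3 VPS-named genes belong to none of these complexes. Vps45, which controls SNARE pairing on early endosomes, had 45.1, 43.8 and 45.7 CPM in LPS against 28.3, 28.02 and 30.4 CPM in None, a change of 0.63 ± 0.08 (adjusted p 1.49e-05). Its deposited TPM did not follow, with 26.8 ± 5.70 TPM in LPS and 27.7 ± 9.88 TPM in None and a TPM change of 0.0026. Vps9d1, which has the VPS9 domain of Rab5 activators, had 10.3, 10.2 and 12.6 CPM in LPS against 16.5, 15.9 and 15.2 CPM in None, a change of -0.52 ± 0.11 (adjusted p 0.00133). Vps72, named after a yeast screen but a subunit of chromatin remodelling complexes, was not called, at 0.02, but was lower at -0.24 under scaling by total counts (adjusted p 0.0342) and at -0.27 on TPM (adjusted p 0.0302).

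Related genes were also compared within each library, as each gene's share of the summed TPM of its relatives, a measure on which the scaling of the library has no effect. With 3 libraries against 3 the smallest two-sided p of an exact permutation test is 0.1, so no share could pass 0.05, and each share named here as not overlapping had that p. In the Vps37 set Vps37c made up 59.9, 59.2 and 60.9% in LPS, against 37.7, 40.4 and 38.9% in None. Vps37b made up 28.8, 28.3 and 29.4% in LPS, against 53.1, 47.2 and 50.1% in None. The leading Vps37 transcript was thus Vps37c in each LPS library and Vps37b in each None library. Vps37d held at most 0.2% in LPS and at most 0.8% in None.

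Snx5 made up 63.2, 67.2 and 65.1% of Snx5, Snx6 and Snx32 in LPS, against 80.2, 78.6 and 79.5% in None, while Snx6 made up 33.7 ± 2.01% in LPS and 19.4 ± 0.51% in None (SD, n = 3 each). Snx1 made up 48.1, 44.2 and 44.2% of Snx1 and Snx2 in LPS, against 53.5, 53.5 and 52.3% in None, so that Snx2 was the larger in each LPS library and Snx1 in each None library. Snx18 held 17.4, 16.5 and 18.9% of the Snx9, Snx18 and Snx33 sum in LPS, against 7.7, 6.5 and 6.6% in None, and Snx9 remained the main transcript with 80.0 ± 1.83% in LPS and 90.9 ± 0.82% in None. Of Snx7 and Snx30, Snx7 made up 75.6, 75.0 and 71.2% in LPS, against 50.4, 50.5 and 55.4% in None.

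Vps39, a HOPS subunit, and Vps8, a CORVET subunit, were also set together but are not closest relatives. Vps39 made up 78.5, 80.0 and 86.7% of their sum in LPS, against 64.2, 62.4 and 54.5% in None. Vps41 of HOPS and Tgfbrap1 of CORVET, with fitted changes of -0.17 and -0.68, were in no set. Snx20 held 80.8 ± 2.65% beside Snx21 in LPS and 71.7 ± 0.79% in None, and Snx10 held 80.0 ± 3.28% beside Snx11 in LPS and 71.9 ± 1.38% in None. In the VPS13 set Vps13c held 60.0 ± 2.58% in LPS and 65.4 ± 1.71% in None, with Vps13a at 9.0 ± 0.94% in LPS and 7.5 ± 0.30% in None and Vps13b at 9.4 ± 0.35% in LPS and 8.1 ± 0.47% in None, and none of these shares overlapped. The share of Vps13d in that set did overlap, at 21.6 ± 2.46% in LPS and 19.0 ± 1.43% in None (exact permutation p 0.2). Its difference of LPS minus None was 2.7 percentage points from TPM but -1.4 from CPM. Computed from CPM, the difference of LPS minus None was larger by over 1.5 times for Snx18 (16.4 against 10.7 percentage points), Snx9 (-16.4 against -10.9), Vps13a (2.4 against 1.5) and Vps13b (3.1 against 1.3). The shares of Vps26a and Vps26b, Vps4a and Vps4b, Vps33a and Vps33b, and Snx3 and Snx12 did overlap. Vps26a, for example, held 66.3 ± 4.24% beside Vps26b in LPS and 64.8 ± 0.27% in None (exact permutation p 0.7).

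**Figure D3:**
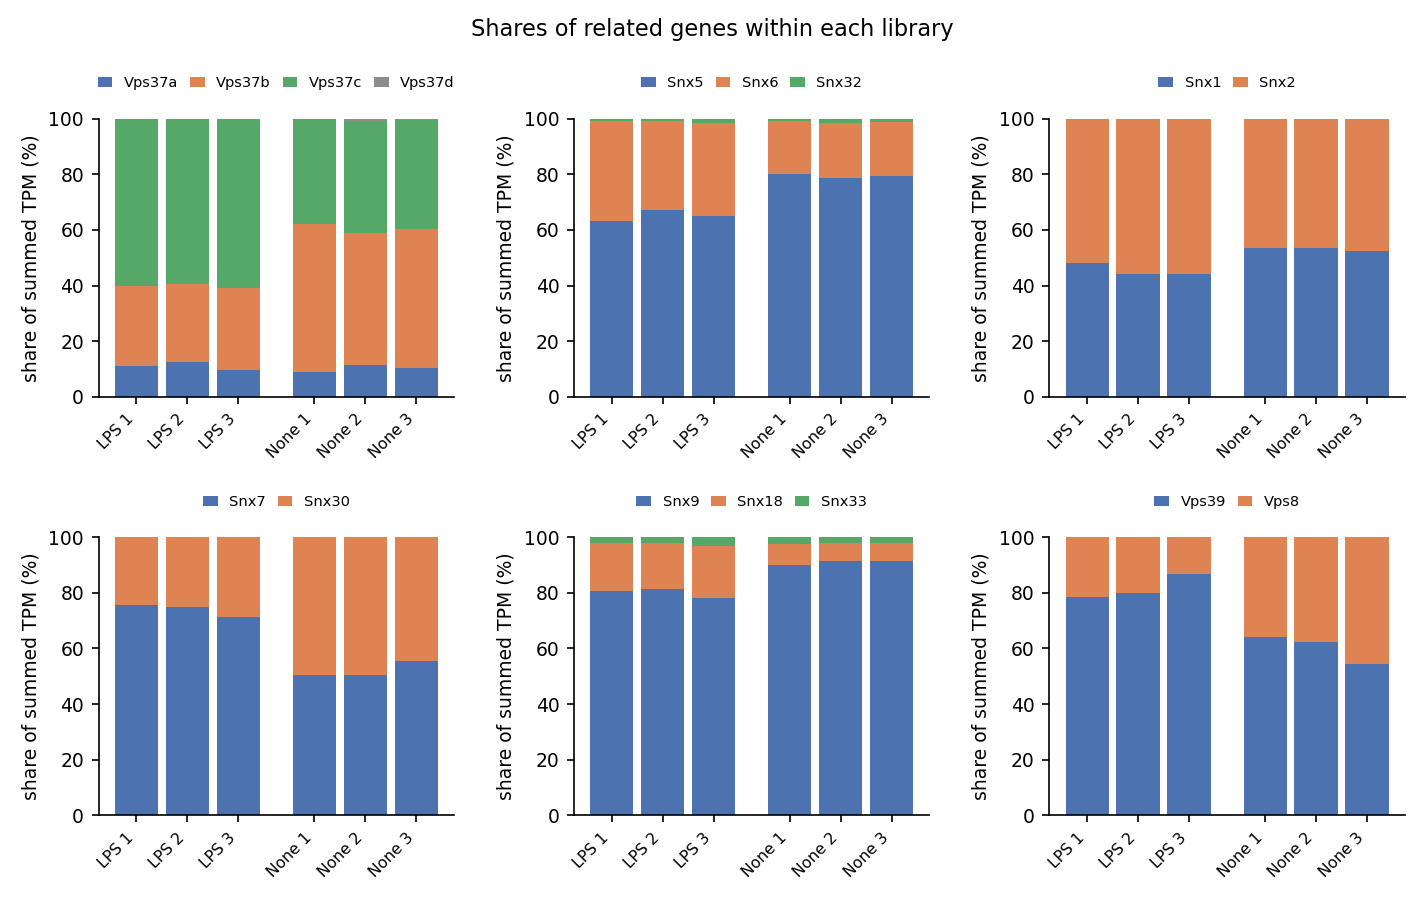
Share of each gene in the summed TPM of its set (vertical axis, percent) in each library, with LPS libraries left and None libraries right, for 6 sets. Vps37c holds 59.2 to 60.9% in LPS and 37.7 to 40.4% in None, and the Snx5, Snx1, Snx7, Snx18 and Vps39 shares are likewise apart.

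Per transcript length, Snx22 had the lowest mean of the 62 tested genes in both groups, with 1.87 ± 0.06 TPM in LPS and 1.76 ± 0.50 TPM in None. Snx5 had the highest mean in None, with 111 ± 12.2 TPM in LPS and 179 ± 3.84 TPM in None, and Snx3 the highest in LPS. In None, 12 of the genes reached 50 TPM, and 5 of the tested genes were under 5 TPM. After Snx5, the most abundant in None was Snx9, with 109 ± 17.1 TPM in LPS and 127 ± 11.98 TPM in None. Vps29 had 111 ± 14.2 TPM in LPS and 110 ± 6.51 TPM in None, Vps25 had 97.0 ± 3.79 TPM in LPS and 105 ± 1.93 TPM in None, and Snx3 had 112 ± 7.63 TPM in LPS and 101 ± 3.998 TPM in None. In LPS the means of Snx3, Snx5, Vps29 and Snx9 lay within their SDs of each other, whereas in None Snx5 stood clear of the rest.

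The family's TPM added up to 2022.4, 2057.8 and 1946.4 in the LPS libraries, against 2253.1, 2253.5 and 2207.2 in the None libraries, without overlap. TPM is a share of all transcripts, and the median of all genes tested was lower on that scale. Snx5 alone was 5.5% of the sum in LPS and 8.0% in None. The retromer-linked BAR genes added up to 304.5 ± 25.2 TPM in LPS and 399.1 ± 6.23 TPM in None, the HOPS, CORVET and Vps33b genes to 159.4 ± 7.63 TPM in LPS and 189.2 ± 6.35 TPM in None, and the VPS13 genes to 90.4 ± 1.2 TPM in LPS and 133.4 ± 13.3 TPM in None. The retromer genes added up to 256.8 ± 21 TPM in LPS and 266.6 ± 5.20 TPM in None, and the PX-only genes to 285.8 ± 1.94 TPM in LPS and 285.6 ± 6.35 TPM in None, both with overlapping libraries.

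**Figure D4:**
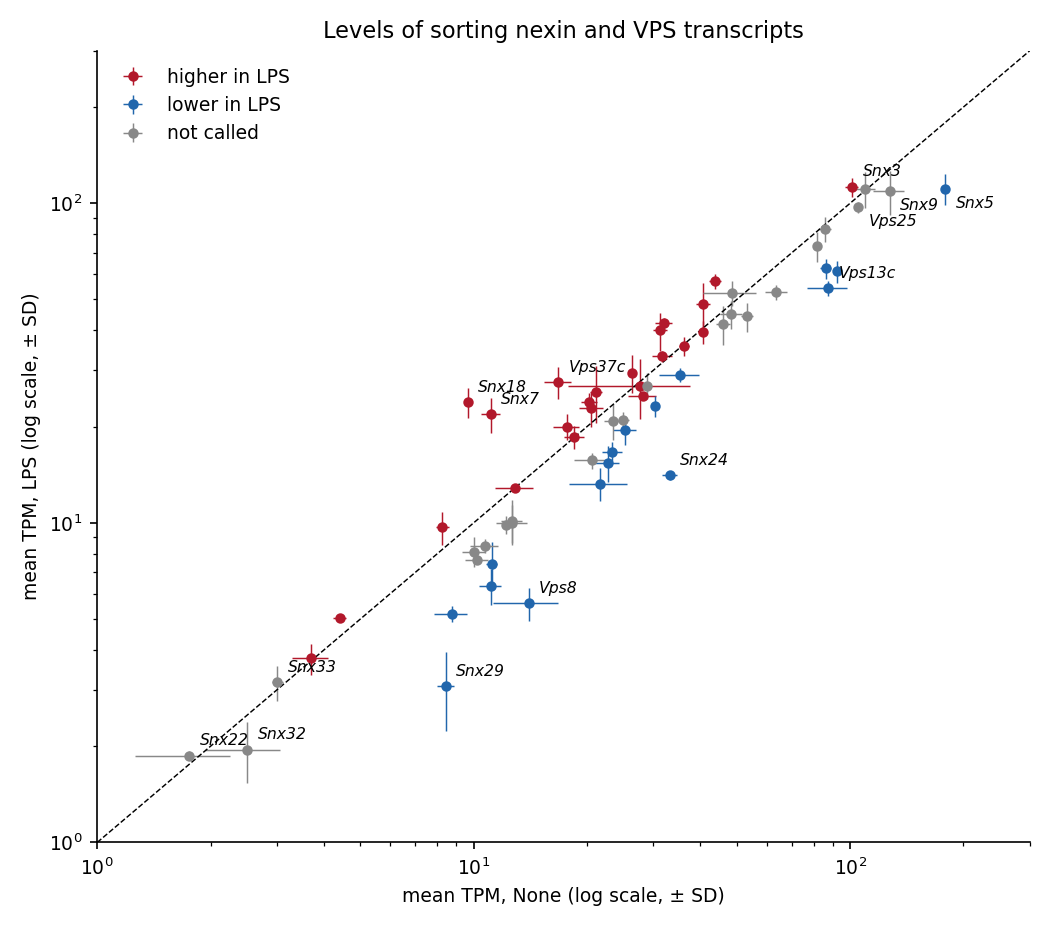
Mean TPM in LPS (vertical axis, log scale, ± SD) against mean TPM in None (horizontal axis, log scale, ± SD) of the 62 tested genes, 3 libraries per group, coloured by the edgeR call. The dashed line marks equal levels. Snx5 lies at the upper right and below the line, with 111 TPM in LPS and 179 TPM in None, and Snx18 and Snx7 lie above it.

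Other genes of the endosomal pathway were taken from 5 lists of 90 genes, of which 89 were tested. In all, 34 (38.2%) were higher in LPS and 25 (28.1%) lower, beside 34.0% and 35.1% of all genes tested. Scaling by total counts gave 19 higher and 42 lower, beside 22.5% and 51.0%. Of 20 tested partners of the ESCRT genes, 10 were higher and 2 lower, beside 34.0% and 35.1%. Scaling by total counts gave 5 higher and 8 lower, beside 22.5% and 51.0%. On TPM 9 were higher and 6 lower, beside 23.2% and 42.4%. Stam, a subunit of the ESCRT-0 complex, had 54.6, 48.1 and 45.9 CPM in LPS against 24.6, 24.9 and 22.9 CPM in None, a change of 1.04 (adjusted p 6.66e-07). Ubap1, an ESCRT-I subunit, was higher by 0.99, and the ESCRT-III subunits Chmp2a and Chmp4b by 0.88 and 0.77.

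The list of PI3P kinases, phosphatases and their complex partners held 16 genes, with 4 (25.0%) higher and 7 (43.8%) lower, beside 34.0% and 35.1% of all genes tested. Scaling by total counts gave 2 higher and 11 lower, beside 22.5% and 51.0%. PI3P is the lipid to which most PX domains bind. Pik3c3, the class III kinase that makes it (the mammalian Vps34), had 22.4, 21.7 and 18.9 CPM in LPS against 43.1, 42.4 and 47.2 CPM in None, a change of -1.07 (adjusted p 6.45e-07). Its complex partners Atg14 and Pik3r4 (the mammalian Vps15) were lower at -0.93 and -0.56. Mtm1, a phosphatase that removes the lipid, had 33.2, 23.4 and 22.4 CPM in LPS against 9.33, 9.10 and 9.62 CPM in None, a change of 1.49 (adjusted p 1.60e-06). The libraries of Pik3c3 and of Mtm1 did not overlap between groups. Other partners of Pik3c3 were lower (Uvrag at -0.49 and Rubcn at -0.33) or not called (Becn1 at -0.10 and Nrbf2 at -0.14). Of the Mtmr phosphatases, Mtmr2 and Mtmr3 were higher by 0.19 and 0.21, Mtmr4 was lower at -0.22, and Mtmr1 and Mtmr6 were not called. Mtm1 averaged 17.8 CPM over the 6 libraries, and Mtmr3 and Mtmr6 averaged 87.1 and 91.7 CPM. The level of the lipid was not measured.

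The WASH complex builds actin on endosomes, and the CCC complex works with retriever. Of 17 genes of the WASH and CCC complexes, 5 were higher and 5 lower, beside 34.0% and 35.1% of all genes tested. Scaling by total counts gave 2 higher and 9 lower, beside 22.5% and 51.0%. Commd9 had 7.39, 8.86 and 7.14 CPM in LPS against 19.3, 19.0 and 17.8 CPM in None, a change of -1.26 (adjusted p 9.81e-07), and Washc5, Commd7 and Washc1 were lower at -0.80, -0.75 and -0.62. Of 26 endosomal Rab, tether and SNARE genes 9 were higher and 8 lower, beside 34.0% and 35.1% of all genes tested. Scaling by total counts gave 5 higher and 10 lower, beside 22.5% and 51.0%. Eea1, the early endosome tether, had 124, 138 and 109 CPM in LPS against 46.0, 46.6 and 51.7 CPM in None, a change of 1.36 (adjusted p 6.11e-08). Vti1b, a late endosome SNARE, was higher by 1.26, Plekhm1, an adaptor that binds HOPS, was lower at -1.29, and Rilp, the Rab7 effector, was lower at -1.35 at 0.455 CPM in LPS and 1.17 CPM in None.

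Of 10 receptors and transporters carried by retromer or sorting nexins, 6 were higher and 3 lower, beside 34.0% and 35.1% of all genes tested. Scaling by total counts gave 5 higher and 4 lower, beside 22.5% and 51.0%. Tfrc, the transferrin receptor, had 305, 275 and 237 CPM in LPS against 50.1, 49.8 and 47.7 CPM in None, a change of 2.47 (adjusted p 3.66e-10). Slc2a1, the glucose transporter that Snx27 and retromer return to the surface, was higher by 1.99. The sorting receptors Sorl1 and Sort1, which retromer returns to the Golgi, were lower at -1.60 and -1.32. Selplg, the selectin ligand that Snx20 binds, was the one gene of this list that was not called.

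**Figure D5:**
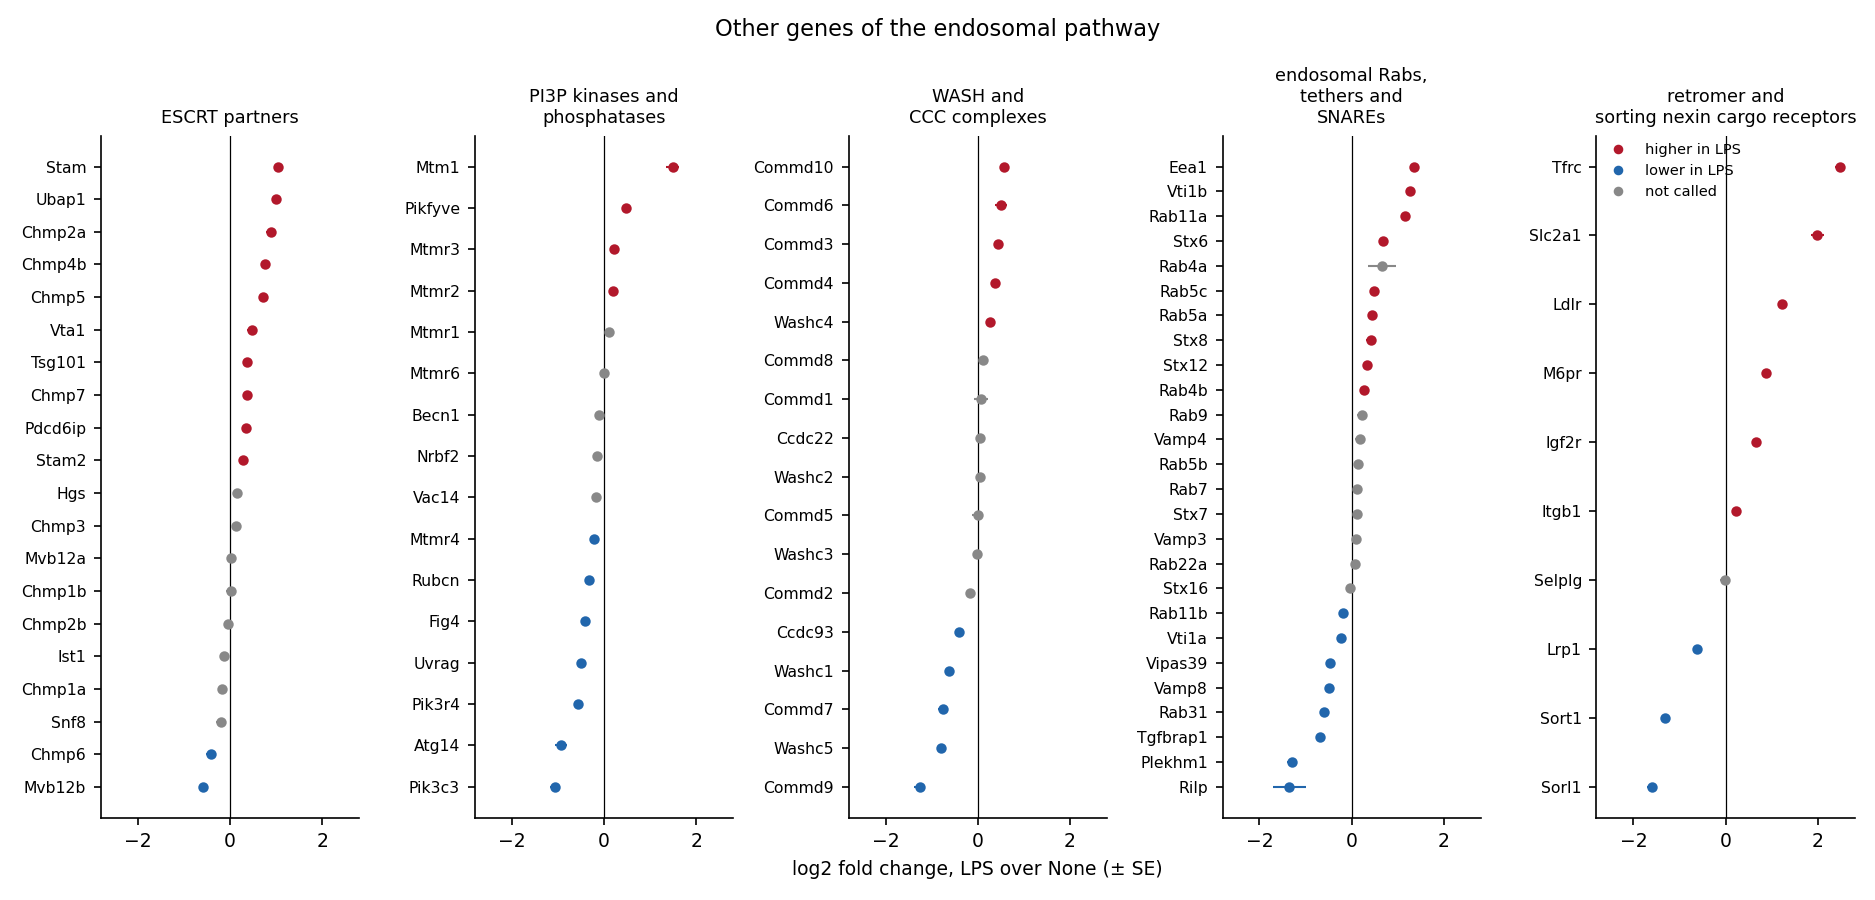
Fitted log2 fold change of LPS over None (horizontal axis, ± SE, 3 libraries per group) for the 89 tested genes of 5 lists of endosomal partners, one panel per list. Red points were higher in LPS, blue lower and grey not called. Tfrc lies furthest to the right at 2.47 and Sorl1 furthest to the left at -1.60.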

How the data were processed

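RNA of RAW-Blue cells was sequenced as paired reads of 100 bases, filtered with SOAPnuke per the labels' protocols. STAR 2.7.10a, RSEM 1.3.1 and GRCm38 are named in the submitters' processing notes. The authors deposited expected counts, which are estimates that divide reads between genes sharing sequence, and TPM, which the authors scaled for transcript length. The sources used here do not state strandedness. Only the 6 library columns whose names match the None and LPS labels were used, and 12 further library columns in each table were not.

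Expected counts were rounded. Genes were filtered with filterByExpr (count minimum 10, total 15), scaled by TMM and tested with edgeR 4.0.16 in R 4.3.3 (glmQLFit and glmQLFTest, group as the single term, two-sided, Benjamini-Hochberg adjustment over all genes tested, threshold 0.05). The SE is the fitted change divided by the root of the F statistic. Steps were tested on simulated data. No 2 libraries of a group were alike within sampling noise (chi-square over degrees of freedom 3.287 to 17.45). Same-numbered libraries did not deviate together. TPM was tested with limma 3.58.1 on log2(TPM + 0.1). Shares of TPM were compared with an exact permutation test, and exon overlaps were taken from GENCODE M21, in which 42 of the 64 genes have the coordinates of the deposited tables. Alternatives were RLE size factors, total counts, DESeq2 1.42.0, other filters, a pseudocount of 1, a replicate block and leaving out each library.

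The members and the gene lists were chosen with earlier results of these data known. Values of each library are given for genes changed at least 2-fold at a mean of 1 CPM or more. They are also given for genes whose shares did not overlap and for up to 2 genes per role with the largest fitted change. Up to 4 partners per list are named for the size of their change. Other genes were named with their values in view.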

Additional observations from a re-analysis of the deposited data

How the results depend on the processing

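Of the 62 tested genes 23 were higher and 16 lower, and leaving out one library at a time gave 16 to 22 higher, lowest without None replicate 1, and 13 to 15 lower. RLE gave 25 higher and 15 lower, DESeq2 22 and 14, no filter 20 and 15, a filter of 1 CPM in 3 libraries 23 and 16. Decreases of at least 2-fold numbered 3 in the main fit but 2 with RLE and 2 with DESeq2. Replicate numbers are shared by the groups. The deviations of same-numbered libraries correlated at 0.0825, -0.0198 and 0.00954, which shows little shared deviation but does not settle whether they were paired. The fit with a replicate block gave 24 higher and 15 lower. It lost the calls for Vps41 (adjusted p 0.0596) and Vps52 (0.0557) and gained calls for Snx33 (0.049) and Vps35 (0.0445). Scaling by total counts gave 8 higher and 31 lower, 1 of them higher by at least 2-fold, and 19 higher and 42 lower among the partners. On TPM 7 were higher and 24 lower, 1 higher by at least 2-fold, with a pseudocount of 0.1 or 1. Shares from CPM in place of TPM moved, LPS minus None in percentage points, to 17.0 for Vps37c (21 from TPM), -11.6 for Snx5 (-14.3), 11.6 for Snx6 (14.2), -16.4 for Snx9 (-10.9), 16.4 for Snx18 (10.7), 18.4 for Snx7 (21.8) and 3.1 for Vps13b (1.3). The causes of these shifts were not tested. Among fitted changes, 0.02 for Snx9, 0.02 for Vps26a and 0.01 for Vps50 turned positive with RLE and with DESeq2. Signs turned negative under total counts at -0.05 for Vps4a, -0.22 for Vps4b, -0.15 for Vps25, -0.01 for Vps36, -0.22 for Vps51, -0.08 for Vps52, -0.05 for Vps53, -0.14 for Snx4, -0.24 for Vps72, -0.18 for Vps29, -0.09 for Vps35 and -0.18 for Snx2. With TPM + 0.1 they turned at -0.05 for Vps4a, -0.12 for Vps25, -0.11 for Vps51, -0.17 for Vps52, -0.03 for Snx12, -0.11 for Snx4, -6.3e-05 for Snx8, -0.27 for Vps72, -0.05 for Vps35 and -0.15 for Snx2. With TPM + 1 the values were -0.05 for Vps4a, -0.11 for Vps25, -0.11 for Vps51, -0.16 for Vps52, -0.03 for Snx12, -0.10 for Snx4, -2.4e-06 for Snx8, -0.26 for Vps72, -0.05 for Vps35 and -0.15 for Snx2. Leaving out a library gave both signs for genes that were not called, from -0.05 to 0.10 for Vps72, -0.06 to 0.10 for Vps26a, -0.06 to 0.05 for Vps26b, -0.10 to 0.11 for Snx9, -0.01 to 0.09 for Vps4b, -0.20 to 0.03 for Snx21, -0.34 to 0.04 for Snx32, -0.06 to 0.05 for Vps50 and -0.00087 to 0.08 for Vps51. Depth limits Snx22, Snx32 and Snx16, all under 8 CPM. It also limits the LPS side of Snx29, with 52, 74 and 70 counts, or 3.69 to 5.37 CPM, though None had 12.2 to 13.1 CPM.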

Other observations

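The ratio of deposited counts to deposited TPM shows which transcript length the authors' estimate used for a gene in each library. It moved by more than 0.3 on the log2 scale between LPS and None in 1 of the 62 tested genes (1.6%), beside 554 of 10242 genes (5.4%) with at least 1 TPM. That gene was Vps45, and its libraries overlapped between the groups.

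In GENCODE M21, 5 of the 64 genes start within 1000 bases of a gene on the opposite strand that points away. Vps26b was not called (-0.02), and its neighbour Ncapd3, 110 bases away, was lower in LPS by -0.91 (edgeR adjusted p 1.59e-05). Vps29 was not called (0.08), and Rad9b, 136 bases away, was lower at -0.95 (edgeR adjusted p 0.0114). Snx1 was lower at -0.37, and Ciao2a, 24 bases away, was not called (0.13, edgeR adjusted p 0.103). Vps53 and Fam57a, 24 bases apart, were both higher, by 0.21 and 0.64, and Hepacam2 beside Vps50 was not tested.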
